A study of Mus musculus with 7 samples.

Results

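Sites listed for both FRA2 and JUND were compared in the Q7 line by how many reads each antibody gave at the same place. A site was taken as a pair: a FRA2 event and a JUND event within 100 bp of each other on mm9, each being the other's nearest. An event is a single base position that the GPS program placed in ChIP-seq reads. There were 35176 pairs, or 54.5% of all FRA2 events listed (64579) and 75.5% of all JUND events listed (46583). Both events were marked present in Q7 at 26545 of the pairs, and neither at 4682. The study mapped FRA2, JUND and an IgG control in 2 striatal cell lines from mouse embryos (day 14, strain 129SvEv/CD1) and SOX2 in 1 of them. Q7 cells have the genotype HdhQ7/Q7, with a short glutamine tract in both copies of huntingtin, and Q111 cells have the genotype HdhQ111/Q111, with an expanded tract. All cells had fewer than 15 passages, grew at 33 °C and were held at 39 °C for 2 days before the experiment to halt division. Each sample pools 2 replicates, so each antibody has 1 value per pair in Q7, with no replicate check. Each line stands for its genotype alone, as 1 immortalised culture. The antibody and the cell type were not checked against marker loci, since no annotation of mm9 was used here, and for the same reason positions are given without gene names and no sequence is printed.

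AP-1 is a transcription factor made of 2 proteins joined by a leucine zipper, and it binds a short palindromic DNA element in many enhancers. FRA2, the product of Fosl2, belongs to the FOS family, whose members need a JUN partner to bind DNA. JUND belongs to the JUN family, whose members can pair with FOS proteins, with each other or with proteins of the ATF family, and it is abundant in resting cells. A site can therefore carry both proteins as 1 dimer, or each of them with other partners, and reads from separate antibodies do not tell these states apart. SOX2 is an HMG-box transcription factor of neural progenitors that binds many enhancers in such cells.

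The pairing rule allowed up to 100 bp, and most pairs lay well inside it. The median distance between the events of a pair was 14 bp (quartiles 6 and 28 bp). At 13699 pairs (38.9%) the events lay within 10 bp, and at 730 (2.08%) on the same base. The limit of 100 bp lay in the thin end of the distances, with 250 pairs at 91 to 100 bp. Another 208 mutually nearest events, more than 100 and up to 110 bp apart, fell outside it, and the median log2 ratio of FRA2 to JUND reads, relative to the median pair, was -0.72 just inside the limit and -0.74 just outside.

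The pairs held most of the reads in events. In Q7 they took 2606132 of 3340554 FRA2 reads (78.0%) and 1391342 of 1660158 JUND reads (83.8%). The median pair had 50 FRA2 reads (quartiles 28 and 94) and 31 JUND reads (21 and 48), and the highest values were 946 and 384.5. Reads of both antibodies varied together over pairs, with r = 0.853 (Pearson, log2 scale) and rho = 0.819 (Spearman). The points share position and local mappability, and pairs are not replicates, so no p is attached.

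The FRA2 library gave more reads at these sites: the median ratio of FRA2 to JUND reads was 1.73, with 0.5 reads added to each. Antibodies differ in how much DNA they recover and libraries in depth, so this ratio says nothing of which protein is more abundant. All ratios that follow are divided by it, and a pair with the median ratio has a log2 ratio of 0. In this sense "FRA2-higher" and "JUND-higher" name sites where the balance leans to 1 protein against the typical pair. The lower quartile lay 1.45-fold towards JUND and the upper quartile 1.36-fold towards FRA2 (log2 -0.53 and 0.44). At 20900 pairs (59.4%) the ratio was within 1.5-fold of the median, and at 30049 (85.4%) within 2-fold.

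With ratios scaled to the median, pairs that leaned at least 2-fold to JUND were more frequent than those that leaned to FRA2, an order that turned round when the control columns set the scale. A pair was called with a fold of at least 2 and an adjusted p below 0.05 in a two-sided exact binomial test of its reads, adjusted by the Benjamini-Hochberg method over all 35176 pairs. JUND was higher at 2530 pairs (7.19% of all pairs tested) and FRA2 at 1202 pairs (3.42%), 10.6% together. The median called pair differed 2.43-fold where JUND was higher and 2.23-fold where FRA2 was higher. A fold of 4 was reached by 170 of the JUND-higher pairs and 25 of the FRA2-higher pairs.

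FRA2-higher pairs had a median of 115 FRA2 reads (quartiles 80 and 168.8) and 28 JUND reads (20 and 42). JUND-higher pairs had 25.8 FRA2 reads (21 and 34) and 37 JUND reads (30 and 49.7). Between the 2 classes the quartile ranges of FRA2 do not overlap, while those of JUND do. The classes were defined by the ratio of these same reads, so this is a description and does not single out FRA2.

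**Figure D1:**
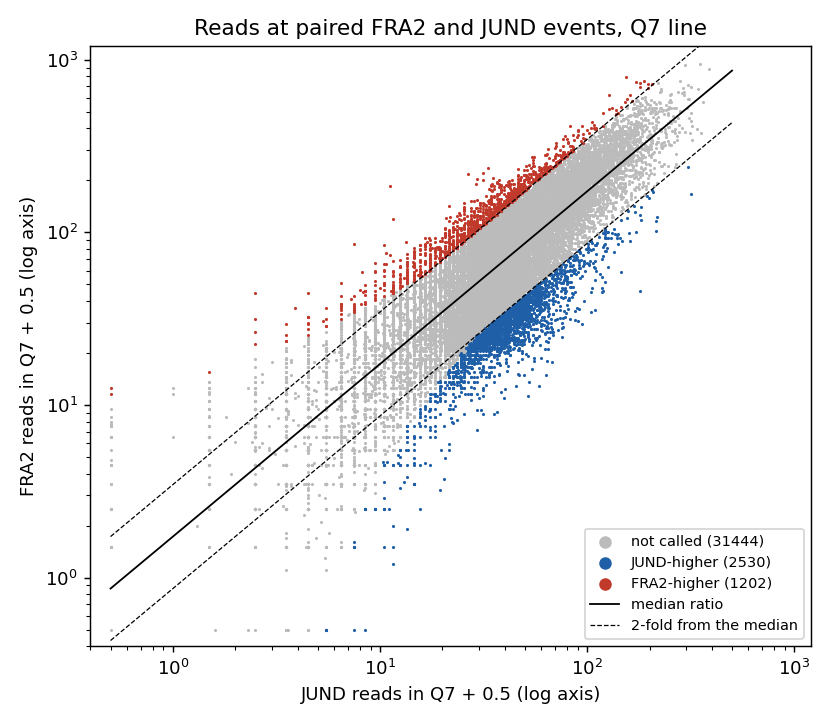
JUND reads (x axis) and FRA2 reads (y axis) at each of the 35176 pairs in Q7, both on log axes with 0.5 added; each point is a pair, the solid line is the median ratio of 1.73 and the dashed lines lie 2-fold from it. Of the coloured points, the 1202 FRA2-higher pairs lie above the band and the 2530 JUND-higher pairs below it, the latter mostly below 100 FRA2 reads.

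These tests compare 2 pooled libraries and cover counting error alone. When a dispersion of 0.05 was assumed for both libraries, the calls went down to 1 FRA2-higher and 13 JUND-higher pairs. The direction of the calls also hung on the scaling. With the ratio of reads in all events (2.01) in place of the median, 421 pairs were FRA2-higher and 4280 JUND-higher. With the ratio of the 2 control columns, 1.04 at pairs on the same base, the numbers were 11561 and 253, so that 97.9% of calls were FRA2-higher in place of 32.2%. At a fold limit of 1.5 in place of 2, the numbers were 3743 FRA2-higher and 3442 JUND-higher.

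The balance moved with the strength of the site. Pairs were put in 4 groups of nearly equal size by the mean of their log2 reads in Q7, from the same reads as the ratio. In the weakest group (median 18 FRA2 and 12 JUND reads) the median log2 ratio was -0.38 (quartiles -0.84 and 0.19). It was -0.24 in the second group and 0.13 in the third, and in the strongest (144.9 and 69 reads) it was 0.32 (-0.02 and 0.61). JUND-higher pairs made up 7.05%, 13.5%, 6.47% and 1.76% of the groups from weakest to strongest, around the 7.19% of all pairs. FRA2-higher pairs made up 1.09%, 2.30%, 4.54% and 5.75%. Calls also depend on the number of reads: the 1395 pairs past 2-fold but not called had a median of 19 reads over both tables. Called shares can therefore move with strength for that reason too. By the medians, strong sites leaned to FRA2, and the quartile ranges of neighbouring groups overlapped.

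The way the tables were made touches this trend at weak sites. Every event marked present in Q7 had at least 20 reads in either table, and 20 JUND reads stand for 34.5 FRA2 reads at the median ratio. Among events marked in Q7, 17465 FRA2 events and 8168 JUND events had none of the other protein within 100 bp, so weak sites leaning either way are missing from the pairs. With pairs grouped by their reads in Q111, libraries the ratio did not use, the Q7 medians were -0.31, -0.19, 0.10 and 0.32, again from weakest to strongest. The part of the listing limit in the trend was not tested. Mean control reads in Q7 over all pairs were nearly equal, 4.43 for FRA2 and 4.36 for JUND, and are a larger part of the reads at weak pairs. Their part in the trend was not tested either.

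The balance also moved with the spacing of the events. Where they lay within 5 bp, 4.75% of the 7593 pairs were FRA2-higher and 3.98% JUND-higher, with a median log2 ratio of 0.19. At 6 to 10 bp the median was 0.14, at 11 to 20 bp 0.06 and at 21 to 50 bp -0.17. At 51 to 100 bp the 2979 pairs had a median of -0.60 (quartiles -1.02 and -0.08), and 19.7% (Wilson interval 18.3 to 21.1%) were JUND-higher against 1.24% FRA2-higher.

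Pairs with wide spacing were also weaker, with a median of 29.4 FRA2 reads at 51 to 100 bp against 65.9 within 5 bp. Within the strongest group the order was the same, from a median of 0.41 within 5 bp to -0.14 at 51 to 100 bp. In that group 0.437% of pairs within 5 bp and 13.4% of those at 51 to 100 bp were JUND-higher. In this class 94.0% of pairs lay within 1 kb of a SOX2 event, against 74.8% of those within 5 bp. Among the strong pairs with no SOX2 event in that range the medians were 0.57 within 5 bp (634 pairs), 0.59 at 6 to 10 bp (444 pairs) and 0.60 at 11 to 20 bp (437 pairs), with no decrease. Beyond that they were 0.44 at 21 to 50 bp (225 pairs) and 0.18 at 51 to 100 bp, where 17 pairs were left.

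**Figure D2:**
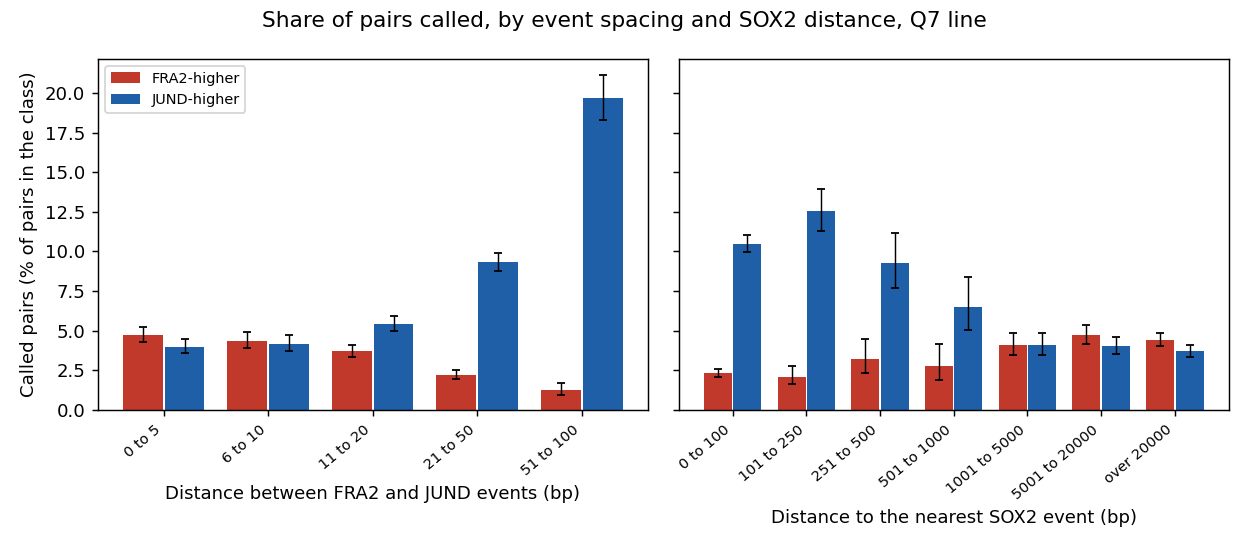
Share of pairs called FRA2-higher (red) and JUND-higher (blue) in classes of the distance between the paired events (left) and of the distance from the pair to the nearest SOX2 event (right), in percent of the pairs in the class; error bars are 95% Wilson intervals. The JUND-higher share goes from 3.98% at 0 to 5 bp to 19.7% at 51 to 100 bp, and from 3.69% in the farthest class from SOX2 to 12.6% in the class that ends at 250 bp.

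SOX2 events were most frequent at the sites that leaned to JUND. A SOX2 event lay within 1 kb of 73.2% of JUND-higher pairs (71.4 to 74.9%), 34.7% of FRA2-higher pairs (32.1 to 37.4%) and 48.7% of pairs not called (48.1 to 49.2%). Read the other way, JUND was higher at 10.5% of the 17577 pairs near SOX2 and at 3.86% of the 17599 others, beside 7.19% overall. FRA2 was higher at 2.37% and 4.46%. The intervals of these shares (95%, Wilson) do not overlap. They treat pairs as independent and do not cover the spread between libraries.

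The share of JUND-higher pairs was largest close to SOX2 and smaller farther away. JUND-higher pairs made up 10.5% of pairs within 100 bp of a SOX2 event, 12.6% beyond that up to 250 bp, 9.29% up to 500 bp and 6.51% up to 1 kb. From there up to 5 kb both directions stood at 4.12%, and beyond 20 kb JUND-higher pairs were 3.69% and FRA2-higher pairs 4.44%. Over all pairs the medians differed little, -0.07 near SOX2 and 0.06 elsewhere, a difference of -0.13.

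Sites near SOX2 were also stronger, with a median of 70 FRA2 reads against 37, and strong sites lean to FRA2. Compared within the 4 strength groups, the difference near SOX2 was larger: -0.46, -0.47, -0.46 and -0.30 on the log2 scale from weakest to strongest. In the strongest group, far from the listing limit, the median was 0.26 (quartiles -0.08 and 0.55) at the 7033 pairs near SOX2 and 0.57 (0.27 and 0.84) at the 1757 others. There 14.2% of pairs without SOX2 were FRA2-higher and 0.171% JUND-higher, while near SOX2 the shares were 3.63% and 2.16%. Grouped by Q111 reads, the differences were -0.22, -0.15, -0.19 and -0.11.

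**Figure D3:**
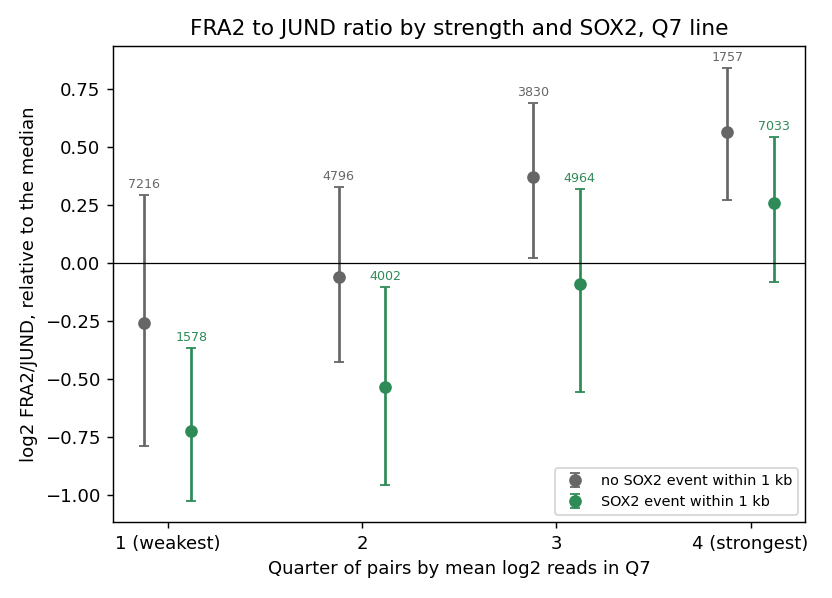
Log2 ratio of FRA2 to JUND reads in Q7 relative to the median pair (y axis) in the 4 strength groups (x axis), for pairs with (green) and without (grey) a SOX2 event within 1 kb; points are medians, bars run from the lower to the upper quartile and the numbers count pairs. The green median lies below the grey one in each group, with 0.26 against 0.57 in the strongest group and -0.72 against -0.26 in the weakest.

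The ratio followed the amount of SOX2 as well, mainly at strong pairs. Pairs near SOX2 were put in 4 groups by the reads of the nearest SOX2 event, with medians of 24, 32, 46 and 87 reads. JUND was higher at 8.89%, 9.28%, 11.8% and 12.3% of pairs, from least to most SOX2, and FRA2 at 3.53%, 2.78%, 1.88% and 1.24%. The median log2 ratio over all these pairs moved little, with -0.02, -0.05, -0.06 and -0.12 in the same order and overlapping quartile ranges. Among strong pairs the median log2 ratio was 0.45, 0.35, 0.26 and 0.11. The strong pairs with the most SOX2 had a median of 165 FRA2 and 92.3 JUND reads, those with the least 137 and 59, so both antibodies gave more reads beside more SOX2, and JUND by the larger factor.

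Crowded sites leaned to JUND too. With no other FRA2 or JUND event within 1 kb, 5.04% of 23329 pairs were JUND-higher and 3.74% FRA2-higher. With 3 or more others, 17.1% of 1813 pairs were JUND-higher and 2.37% FRA2-higher, and 88.1% of these pairs were near SOX2 against 38.3% of the former. Events close together can share out reads of a single site differently in the 2 tables. With all reads within 250 bp summed, 94.0% of FRA2-higher pairs (1130) and 80.4% of JUND-higher pairs (2033) kept a fold of 2, scaled to the median without sums. Of these, 986 and 1481 had no other event within 500 bp, so their sums could not differ from their own reads. Called pairs with such a neighbour numbered 216 and 1049, and they kept the fold less often than these shares. Tested anew on the sums and scaled to the median of the sums, 1070 and 2362 pairs were called.

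Isolated pairs have no such neighbours. There were 20303 pairs with no other event within 500 bp, both events marked present in Q7 and fewer than 40 control reads. Of these 1135 (5.59%) were JUND-higher and 698 (3.44%) FRA2-higher. A SOX2 event lay within 1 kb of 73.7% (71.1 to 76.2%) of the former, 34.2% (30.8 to 37.8%) of the latter and 54.0% of the isolated pairs not called. The shares of the called classes were thus close to those over all pairs, 73.2% and 34.7%.

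The 10 isolated pairs leaning farthest to JUND, ranked by the near end of the 95% Clopper-Pearson interval of the fold, had 20.1 to 37.2 FRA2 reads and 46 to 108 JUND reads. The first lay on chromosome 15, with FRA2 at position 60540427 (35 reads) and JUND at 60540418 (108 reads), 5.28-fold towards JUND (interval 3.61 to 8.04, exact binomial test, adjusted p = 8.48e-18). A SOX2 event with 36 reads lay 12 bp away. JUND thus stood above its upper quartile over all pairs and FRA2 below its median.

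Chromosome 15 held another pair of the 10 at position 98784128 (22.8 FRA2 and 62.8 JUND reads, 4.69-fold, 2.89 to 7.99), with SOX2 at 109 bp. Another lay at position 76342410 (35.4 and 80 reads, 3.87-fold, 2.62 to 6.05), with SOX2 at 13 bp. On chromosome 11 at position 100801062, 31 FRA2 reads stood against 70.7 JUND reads (3.90-fold, 2.56 to 6.24), with SOX2 at 32 bp. Each of these 3 sites thus combined a FRA2 event below the median with a JUND event above its upper quartile of 48.

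On chromosome 6 at position 113049803 there were 23.8 FRA2 and 57 JUND reads (4.09-fold, 2.50 to 6.91), with SOX2 13 bp away. On chromosome 3 at position 21463213 there were 37.2 and 79 reads, with SOX2 at 110 bp. The pairs on chromosome 17 at position 24687467 (20.1 and 48 reads), chromosome 2 at position 19579385 (20.4 and 46) and chromosome 10 at position 59814816 (28.1 and 59.3) had SOX2 events at 64, 68 and 31 bp. The exception was chromosome 1 position 94683987, with 27 FRA2 and 67 JUND reads (4.24-fold, 2.70 to 6.97), where the nearest SOX2 event was 12433 bp away. In all, 9 of the 10 had a SOX2 event within 1 kb.

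The 10 isolated pairs leaning farthest to FRA2 were the reverse, with 141 to 627 FRA2 reads and 21 to 127 JUND reads. On chromosome 19, FRA2 at position 10838044 had 202 reads and JUND 6 bp away had 29, a 3.97-fold lean to FRA2 (2.72 to 6.18, exact binomial test, adjusted p = 1.62e-13). On chromosome 3 at position 85519914 there were 201 and 31 reads (3.70-fold, 2.56 to 5.67). At both sites FRA2 stood above its upper quartile of 94 while JUND was near its median of 31.

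On chromosome 5 at position 145863733 there were 141 FRA2 and 21 JUND reads (3.81-fold, 2.45 to 6.48). The strongest of the 10, on chromosome 7 at position 89424537, had 627 FRA2 and 127 JUND reads (2.85-fold, 2.36 to 3.49, exact binomial test, adjusted p = 5.49e-29). It shows the lean at high reads of both proteins, where counting error is small. The others were chromosome 4 position 151634756 (188 and 34 reads), chromosome 8 position 86668888 (186 and 34), chromosome 9 position 61511971 (199 and 37), chromosome 11 position 21481647 (194 and 36) and chromosome 5 position 130500264 (272 and 53.8).

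At 9 of these 10 pairs no SOX2 event lay within 1 kb, the nearest being 1913 to 82762 bp away. The exception was chromosome 13 position 98321007 (147 FRA2 and 25 JUND reads, 3.35-fold, 2.22 to 5.43), where a SOX2 event of 22 reads lay 6 bp away. The events of a pair lay 2 to 24 bp apart here, with a median of 6 bp, against 4 to 84 bp with a median of 25 bp in the 10 pairs leaning to JUND.

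**Figure D4:**
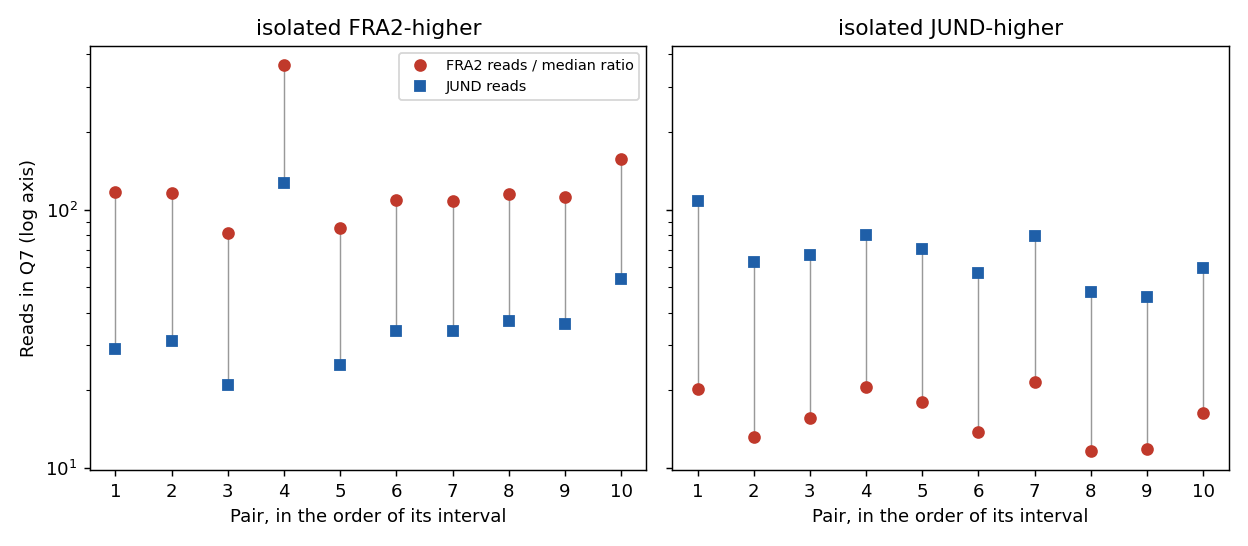
Reads in Q7 (log axis) at the 10 isolated pairs leaning farthest to FRA2 (left) and to JUND (right), in the order of their intervals; circles are FRA2 reads divided by the median ratio of 1.73, squares are JUND reads, and a line joins the values of a pair. On the left the scaled FRA2 values run from 81.6 to 363 above JUND values of 21 to 127, and on the right from 11.6 to 21.5 below JUND values of 46 to 108.

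Without the demand for isolation the extremes were wider, and several rested on how neighbouring events were split. On chromosome 17, FRA2 at position 33920528 had 45 reads and JUND at 33920545 had 179, a 6.81-fold lean to JUND (4.93 to 9.75). FRA2 had 265.1 reads within 250 bp, and on the sums the log2 ratio was -0.26, scaled to the median of the sums, and the pair was not called. On chromosome 6 at position 31050563 a 4.78-fold lean to FRA2 (218.2 and 26 reads) went to a log2 ratio of 0.13 with 410 and 212 reads summed. These 2 pairs do not lean by 2-fold as sites.

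Others stayed with the sums. On chromosome 19, FRA2 at position 9057686 had 185.6 reads and JUND 10.7, a 9.62-fold lean to FRA2 (5.35 to 19.95), and no further reads lay within 250 bp. On chromosome 7 at position 146647482 there were 119 and 11 reads (6.02-fold, 3.38 to 12.9), with no other event within 500 bp and the nearest SOX2 event 67298 bp away. On chromosome 7 at position 138121445 there were 12.3 FRA2 and 58 JUND reads (7.89-fold towards JUND, 4.43 to 17.1), the events lying 66 bp apart and SOX2 62 bp from their midpoint. At the last pair the FRA2 event, and at the first 2 the JUND event, was not marked present in Q7.

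The pair on chromosome 6 at position 61380811 had 44 FRA2 reads and 2 JUND reads, a 10.3-fold lean to FRA2 with a wide interval of 3.32 to 108.5, and its JUND event was not marked present in Q7. On chromosome 5 at position 81793618, 84.8 FRA2 reads stood against 7 JUND reads, and the FRA2 sum within 250 bp was 402.1 with no further JUND read. In Q111 the latter pair had 127.4 and 64.6 reads and a ratio close to the median (1.06-fold). The remaining FRA2-higher pairs of this set, on chromosome 3 at position 37212482 (234 and 32.6 reads), chromosome 11 at position 20531387 (220 and 30.8) and chromosome 4 at position 87859941 (191 and 28.6), each had a second JUND event beside them. Their log2 ratios on the sums were 0.96, 0.94 and 0.66, below the fold limit.

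Of the JUND-higher pairs in this set, 9 of 10 lay within 250 bp of a SOX2 event. Of the FRA2-higher pairs in the set, 5 of 10 did, and 6 lay within 1 kb of one. Among the JUND-higher pairs SOX2 was nearest on chromosome 10, where it (200 reads) was 3 bp from the pair at position 121274688 (29.1 FRA2 and 94 JUND reads). On chromosome 3 at position 19853998 there were 34.1 and 104 reads (5.22-fold, 3.56 to 8.03) beside a SOX2 event of 428 reads. The others were chromosome 11 position 43805787 (10.8 and 51 reads), chromosome 17 position 71146866 (17.3 and 67), chromosome 1 position 58158582 (13.1 and 52) and chromosome 6 position 71940292 (17.5 and 63.2), with the events 64 to 76 bp apart. At these 6 pairs further FRA2 events lay nearby, and the leans were smaller with all reads within 250 bp summed, though all 6 were still called. On the sums the log2 ratio was -1.54 at position 19853998, where it had been -2.38, and -1.37 at position 121274688, where it had been -2.46. At positions 43805787, 71146866, 58158582 and 71940292 it was -1.13, -1.03, -1.35 and -1.43, against -2.98, -2.71, -2.74 and -2.61 without the sums. The tenth, on the mitochondrial genome at position 16265, had 14.5 FRA2 and 63 JUND reads beside 18.6 and 72.2 control reads, and neither event was marked present. On the sums FRA2 had 171 reads there and the log2 ratio turned to 0.61, and with control reads subtracted it was -0.89 and not called.

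The strongest pairs of all leaned to FRA2 by less than 2-fold. On chromosome 10 at position 123575720 there were 946 FRA2 and 351 JUND reads (1.56-fold, 1.38 to 1.77), and on chromosome 8 at position 70681285 there were 936 and 297 (1.82-fold, 1.60 to 2.09). The other 3 of the 5 with the most reads, on chromosome 15 at positions 71533697 (876.3 and 384.5 reads), 91533788 (747.5 and 278.5) and 76026774 (716 and 305.4), were 1.32-fold, 1.55-fold and 1.36-fold towards FRA2. All 5 had SOX2 within 43 bp and intervals that exclude 1, and with the scaling by control columns all 5 were called FRA2-higher. With the scaling by reads in all events none was called, and those at positions 71533697 (log2 0.18, exact binomial test, adjusted p = 0.136) and 76026774 (log2 0.22, adjusted p = 0.0865) did not pass the test.

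Strong sites at the typical balance were found beside SOX2 as well. Among isolated pairs with at least 300 reads, the 5 closest to the median were on chromosome 17 at position 23812845 (198.4 FRA2 and 114.6 JUND reads), chromosome 2 at position 148023638 (192 FRA2 reads, both events on the same base), chromosome 9 at position 60685365 (209 and 121), chromosome 8 at position 113465667 (208 and 120) and chromosome 19 at position 27439296 (222 and 128). Their intervals ran from 0.788 at the lowest to 1.28 at the highest, and SOX2 lay 25 to 58 bp away at all 5. These pairs were chosen for their ratio, so their balance is a description.

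Present marks rest on the same reads as the ratio, so the ratios of these classes are a description. Both events were marked present in Q7 at 26545 pairs, with a median log2 ratio of 0.02. At 3483 pairs the FRA2 event alone was marked (32 FRA2 and 16 JUND reads, median 0.39), and at 466 pairs the JUND event alone (17.1 and 25 reads, median -1.41). At 4682 pairs neither was marked, and the medians there were 11 and 8 reads. The marks of these pairs in Q111 were not counted. Among pairs with both marks 1994 (7.51%) were JUND-higher and 869 (3.27%) FRA2-higher, close to the 7.19% and 3.42% of all pairs.

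Events without a partner were weak. FRA2 events marked in Q7 had a median of 59.9 reads in pairs (quartiles 36 and 104.9) and 28 (23.1 and 35.9) where no JUND event lay within 100 bp. For JUND the medians were 37 (27 and 55.9) and 26 (22.7 and 31). Of the marked events, 13386 FRA2 events (27.9%) and 5300 JUND events (15.1%) had none of the other protein within 1 kb, most of them close to the smallest listed number of 20 reads. A SOX2 event lay within 1 kb of 51.2% of these JUND events and 11.6% of these FRA2 events. Among marked events in pairs the shares were higher, 61.5% for JUND and 56.6% for FRA2.

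A few strong events stood alone. Among events with fewer than 40 control reads, the highest FRA2 values with no JUND event within 1 kb were 143 reads on chromosome 10 at position 96013094, 136 on chromosome 15 at position 73744254 and 125 on chromosome 3 at position 57359733. The next were 109.7 on chromosome 10 at position 58759138 and 107.5 on chromosome 15 at position 10721595, and SOX2 lay within 1 kb of the last alone, at 76 bp. Under the same limit the highest JUND values with no FRA2 event in that range were 94 reads on chromosome 17 at position 44434384, 89.9 on chromosome 10 at position 24153838, 88 on chromosome 10 at position 77875789, 88 on chromosome 3 at position 135162112 and 80 on chromosome 1 at position 77407010. All 5 of these JUND events had SOX2 within 10 to 104 bp.

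Chromosomes differed modestly. The median log2 ratio ran from -0.11 on chromosomes 10 and 15 to 0.08 on chromosome 14. JUND-higher pairs made up 11.7% on chromosome 17, 10.4% on chromosome 19, 9.79% on chromosome 10 and 9.67% on chromosome 15, against 3.85% on chromosome X and 4.82% on chromosome 18. The share of pairs near SOX2 was 53.9% to 58.1% on the first 4 and 39.6% to 39.8% on the last 2. The shares did not always go together. On chromosome 3, 57.4% of pairs were near SOX2 and 7.21% JUND-higher, close to the 7.19% of all pairs. On chromosome 13 the shares were 51.1% and 5.94%. Among pairs with no SOX2 event within 1 kb the JUND-higher share still ran from 0.912% on chromosome X to 6.45% on chromosome 17.

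The same pairs were read in Q111, in libraries that the Q7 ratio did not use. There the median ratio was 1.86. The log2 ratios of the lines, each relative to its own median, gave r = 0.599 (Pearson) and rho = 0.626 (Spearman) over pairs, which share their positions and the event calls. Of the FRA2-higher pairs of Q7, 1113 of 1202 (92.6%, 90.98 to 93.9%) leaned to FRA2 in Q111, and 351 (29.2%) did so by at least 2-fold, where 6.06% of all pairs did. Of the JUND-higher pairs, 2397 of 2530 (94.7%, 93.8 to 95.5%) leaned to JUND, and 1537 (60.8%) by at least 2-fold, where 13.6% of all pairs did. A lean of 2-fold the other way was found at 4 and 16 pairs. Over all pairs the sign was the same at 73.9%.

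The 10 isolated pairs leaning to JUND did so in Q111 by 2.12-fold to 6.33-fold. At chromosome 11 position 100801062 there were 45 FRA2 and 154.7 JUND reads in Q111, and at chromosome 15 position 60540427 there were 27 and 36. The 10 isolated pairs leaning to FRA2 did so by 1.51-fold to 2.60-fold, 6 of them by 2-fold or more. None of the 20 changed direction between the lines.

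The trends with strength, spacing and SOX2 were in the Q111 libraries too. From 0 to 5 bp through 51 to 100 bp the Q111 medians were 0.21, 0.15, 0.07, -0.18 and -0.69. Near SOX2, which was mapped in Q7, the Q111 median was -0.11 against 0.10 elsewhere, a difference of -0.21. Within groups by Q111 strength the differences were -0.36, -0.17, -0.30 and -0.18.

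**Figure D5:**
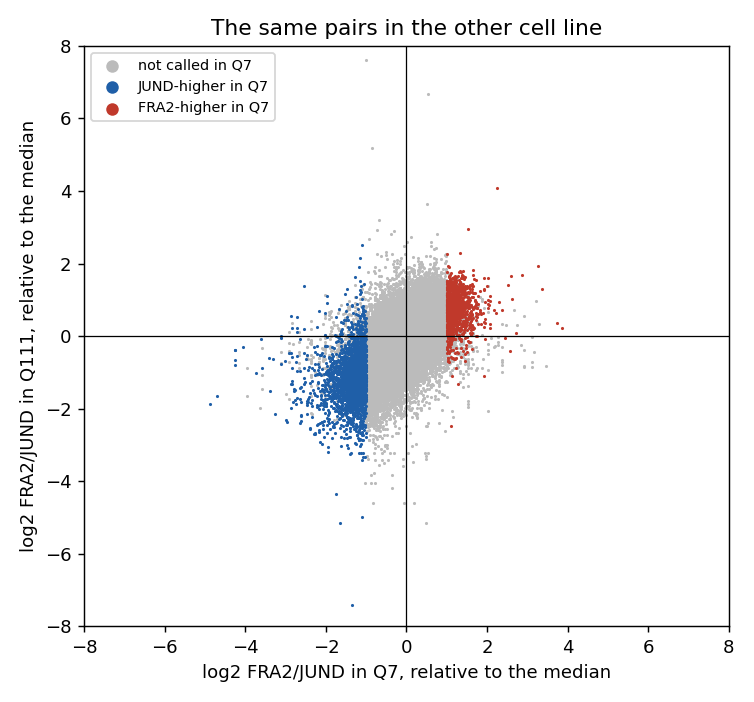
Log2 ratio of FRA2 to JUND reads relative to the median pair, in Q7 (x axis) and Q111 (y axis), for the 35176 pairs; colours give the call in Q7. Of the red points 92.6% lie above 0 on the y axis, and of the blue points 94.7% lie below it.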

How the data were processed

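ChIP-seq reads were aligned with Bowtie 0.12.7 to mm9, per the submitters' processing notes. Events come from GPS, going by the names of the deposited tables (version and options not given in the sources used). The IP columns hold expected counts of reads per event, as the file headers and the values deposited show (80.7% of FRA2 and 78.0% of JUND values in Q7 are whole). The Control columns hold a signal, control reads scaled by the authors, judged from steps between the deposited values, and the headers do not name the control library. Another 30 value columns were not used here.

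Groups came from the sample titles. Pairs, the pseudocount of 0.5 and the median scaling are as described in the report. Reads were rounded for the two-sided exact binomial test per pair, with Benjamini-Hochberg adjustment (Python 3.11.15, numpy 2.4.6, scipy 1.17.1, statsmodels 0.14.6), which was tested on simulated data. Fold intervals are 95% Clopper-Pearson, intervals of shares are Wilson. These intervals leave out the spread between libraries, and PCR reads are not independent molecules. Named positions are the 10 called pairs per direction with intervals farthest from 1, overall and among isolated pairs, the 5 with most reads, the 5 isolated pairs of at least 300 reads nearest the median, and the 5 strongest unpartnered events per table with under 40 control reads. Members, groups and tests were chosen with earlier results of these data known. Planned gene lists and motifs were not run, since no mm9 genome or annotation was used here. Alternatives changed scaling, control handling, pairing distance, read sums, pair sets, pseudocount, read and fold limits and the assumed spread.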

Additional observations from a re-analysis of the deposited data

How the results depend on the processing

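No paired analysis was possible because every group holds 1 pooled sample, and no replicate could be left out. FRA2-higher pairs numbered 1202 and JUND-higher pairs 2530. Of the alternatives that moved either number by over 1.5 times, event totals as scale gave 421 FRA2-higher and 4280 JUND-higher pairs, pairing within 20 bp 494 and 1426, pairs with both present marks 777 FRA2-higher, isolated pairs 744 and 1633, a fold limit of 1.5 gave 3743 FRA2-higher and 3442 JUND-higher, a fold limit of 4 gave 25 and 170, and a dispersion of 0.05 gave 1 and 13. Pairing within 20 bp, both present marks (26545 pairs) and isolation (27506 pairs) left fewer pairs to test than 35176. Their numbers of calls therefore cannot be compared as shares. The isolated pairs here needed no present marks and had no control limit, unlike the 20303 above, and were scaled to their own median. Scaling by control columns, chosen after seeing the data, gave 11561 and 253. The share of calls that were FRA2-higher was 32.2% at first, 8.96% with event totals and 97.9% with control columns.

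The log2 difference near SOX2 (-0.13) kept its sign in the alternatives run. It was -0.23 with control reads subtracted, -0.10 with pairing within 20 bp, -0.10 with reads summed over 250 bp, -0.18 with both present marks, -0.087 in isolated pairs, -0.042 with a pseudocount of 5, -0.069 with SOX2 within 100 bp, and -0.43 averaged over strength groups. The values added after seeing the data were -0.17 over Q111 strength groups and -0.30 in the strongest group. Of 47 named pairs, the mitochondrial pair reversed on summed reads (log2 0.61) and lost its call with control subtracted (-0.89), and 5 others lost theirs on sums. Only 27 of the 47 were in the set paired within 20 bp, 30 in the isolated set and 37 in the set with both marks. Named pairs were not followed at the other read and fold limits or with the dispersion of 0.05. That dispersion left 1 FRA2-higher and 13 JUND-higher calls over all pairs, so most of the 37 called named pairs lost theirs. Depth limits weak pairs, and those past 2-fold but not called had a median of 19 reads over both tables.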

Other observations

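Neighbouring called pairs were compared in direction. Of all 3732 called pairs 2530 were JUND-higher, so many neighbours share that direction by these numbers alone. Of 86 successive called pairs at most 1000 bp apart, 72 had the same direction, 68 of them both JUND-higher. At 1000 to 10000 bp the number was 115 of 180, 106 of them both JUND-higher, and at 10000 to 100000 bp it was 561 of 905, 478 of them both JUND-higher. Such neighbours can share a SOX2 event and reads, and no comparison was made with chance.

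Windows of 1 Mb with at least 20 pairs, 749 in all, had medians from -0.69 to 0.57. The window on chromosome 11 from 106000001 to 107000000 had the highest share of FRA2-higher pairs, 6 of 23 against 3.42% over all pairs, but its median was -0.07 and it also held 2 JUND-higher pairs. SOX2 lay within 1 kb of 4 of the 23. On chromosome 15 from 78000001 to 79000000, 8 of 34 pairs were JUND-higher, against 7.19% over all pairs, and 0 FRA2-higher, with a median of -0.03. These windows were chosen after their values were seen.

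There were 7 pairs with 40 or more control reads in either table. On chromosome 11 the pair at position 3053864 had 520.5 FRA2 and 225.3 JUND reads beside 135.1 and 123.2 control reads. The pair at position 3059880 had 511.3 and 137.4 reads beside 112.0 and 44.2 control reads and was called FRA2-higher.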
